A study of Drosophila melanogaster with 3 samples.

Results

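The genes described here are the 33 protein-coding genes of Drosophila melanogaster whose symbol starts with Vha, out of 13945 protein-coding genes in the Ensembl annotation of the BDGP 6 genome. They encode the subunits of the vacuolar H+-ATPase (V-ATPase) and their paralogues. They were chosen by symbol, and the rule uses no binding value, but it was set with earlier results of these data known. They have 45 annotated start sites. The study mapped the DNA bound by Vrille (vri), a bZIP transcription factor of the circadian clock, by chromatin immunoprecipitation and sequencing (ChIP-seq). There was 1 group of 3 biological replicates, all whole white prepupae of both sexes from the vri-GFP line, which stably expresses a Vrille protein tagged with GFP at the C-terminus. An antibody against GFP pulled down the tagged protein from sonicated chromatin, with fragments of 200 to 800 bp. The labels state neither which promoter drives the fusion nor whether the native vri gene remains, and they give the age as unknown. Whole animals were used, so the tissue in which a site was bound cannot be told, and peak lists hold no RNA with which to check cell types. No untagged or mock sample was analysed here, so every value below is a description of 1 condition.

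The V-ATPase is a rotary proton pump of lysosomes, endosomes and, in insect epithelia such as the Malpighian tubule, the apical plasma membrane. Its cytosolic V1 sector hydrolyses ATP and turns a central stalk, and its membrane V0 sector carries protons across with a rotating ring of proteolipids beside the a subunit. In the fly several subunits come from a single gene, while others have paralogues of which usually 1 is used widely and the rest in few tissues, often the testis.

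A gene was counted as bound when the summit of a peak in the optimal list lay within 1 kb of any of its start sites. The optimal list is the authors' set of 9264 reproducible peaks, and its coordinates are on the dm6 build. By this rule 8 of the 33 Vha genes were bound, or 24.2% (exact binomial 95% interval 11.1 to 42.3%), against 27.5% of all protein-coding genes. The Vha genes as a set were therefore bound at about the share of the genome. In each replicate's own list, taking as many of its highest entries as there are optimal peaks, 9, 8 and 8 Vha genes had a summit in the window in replicates 1, 2 and 3. The shares of all genes were 29.8%, 27.4% and 28.0% in the same lists. The mean share over replicates was 25.3% ± 1.75 for Vha genes and 28.4% ± 1.22 for all genes (SD, n = 3 replicates each). Replicates 1 and 3 added Vha13, replicate 2 added VhaM9.7-c, replicate 2 lacked Vha36-1 and replicate 3 lacked Vha68-2. Of entries of any rank, 8 Vha genes had a summit in the window in all 3 replicates, against 36.2% of all genes.

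Of the 8 bound genes, 7 belonged to the subunits with a single gene and the widely used paralogues, as classed from background knowledge and not from the files. Of these 14 genes, 7 were bound, or 50% (exact interval 23.0 to 77.0%), against 27.5% of all protein-coding genes. Of the other 19 paralogues, 1 was bound, or 5.26% (0.133 to 26.0%). In the replicates' own lists the counts were 8, 6 and 7 of the 14, and 1, 2 and 1 of the 19, and the mean shares were 50% ± 7.14 and 7.02% ± 3.04 (SD, n = 3). Within the first set, 2 of 6 single-gene subunits (33.3%) and 5 of 8 widely used paralogues (62.5%) were bound. VhaAC45 stands here among the single-gene subunits although VhaAC45RP is a related gene, and with it moved to the widely used paralogues the counts were 2 of 5 and 5 of 9. Within the second, none of the 7 paralogues known from few tissues was bound, which allows a share of up to 41.0% by the exact interval. These 7 are Vha68-3, Vha36-2, Vha14-2, Vha100-3, VhaPPA1-2 and VhaAC39-2, most of them known from the testis, and Vha100-1, known from neurons. The remaining 12 paralogues, whose tissue was not assigned here, had 1 bound gene, Vha100-5. By sector, 4 of 13 V1 genes (30.8%), 4 of 18 V0 genes (22.2%) and neither of the 2 Ac45 genes were bound. The V1 and V0 shares were near the 27.5% of all protein-coding genes. No test was made of these differences, since the genes of a family are not replicates and the classes were set with earlier results known.

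**Figure D1:**
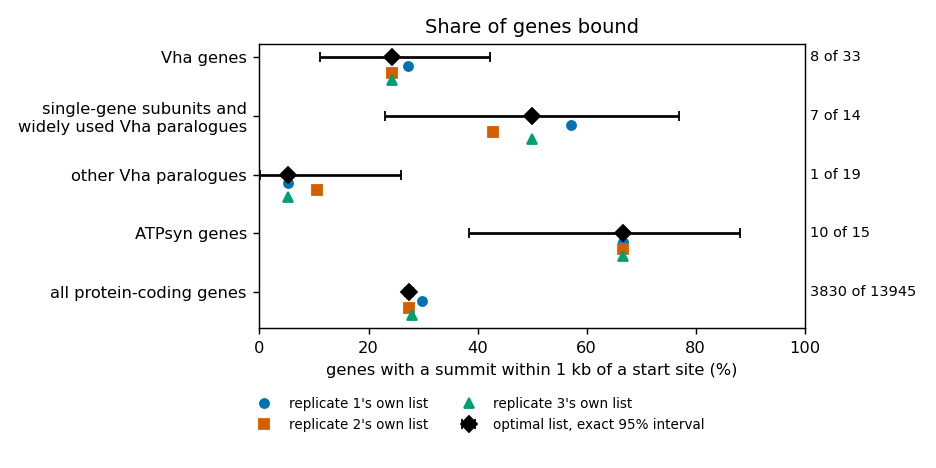
Share of genes with a summit within 1 kb of a start site, in percent, for the Vha genes, their 2 classes, the ATPsyn genes of the mitochondrial ATP synthase and all protein-coding genes. Diamonds are the optimal list with exact 95% binomial intervals, coloured points are the 3 replicates' own lists, and the counts at the right are of the optimal list. The single-gene and widely used set stands at 50% and the other paralogues at 5.26%.

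Peak heights are given as relative signal, the authors' signal of a peak divided by the median signal of the optimal peaks in the same list, so that 1 is a median optimal peak. For each optimal peak the value in a replicate is that of the overlapping entry with the nearest summit. The catalytic V1 head is built from the A and B subunits, and 1 gene of each was bound. Vha55 encodes the B subunit, which binds nucleotide beside the catalytic A subunit, and lies at chromosome 3R, 12623762 to 12627829, on the minus strand. Its highest summit stood in an intron, 959 bp downstream of a start site (peak at 3R, 12626580 to 12626921), with relative signals of 1.89, 2.70 and 2.00 in replicates 1, 2 and 3. The mean was 2.20 ± 0.441 (SD, n = 3), which ranked 843 of the 3830 bound genes by their highest peak. A second Vha55 peak (3R, 12627746 to 12627920) had its summit 29 bp upstream of the most upstream start site and measured 1.91, 1.65 and 1.29, with a mean of 1.61 ± 0.310. That summit was also within 1 kb of the start of Snx3, a sorting nexin gene on the other strand. Another, lower summit in the intron averaged 0.626 ± 0.134. Thus all 3 replicates placed binding both at the Vha55 start and inside the gene, and the intron summit was the higher in replicates 2 and 3.

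The stretches below carry the Vha55 and Vha68-2 summits, read from the genome on the strand of the gene. They are shown because GAGAG was the most frequent of the searched motifs at Vha summits, and because the Vha55 start holds a cAMP response element (CRE, TGACGTCA) that shares 2 bases with an E box (CACGTG). Capitals mark motif matches. The first is the intron summit of Vha55, chr3R:12626692-12626792, minus strand, which holds none of the searched motifs. The second is the part of the window at its start-site summit that lies upstream of the gene, chr3R:12627830-12627908, minus strand, again with none. The third is the CRE with the E box, chr3R:12627753-12627782, minus strand, in the 5′ UTR of the longest Vha55 transcripts and upstream of the other start sites. The fourth is the Vha68-2 summit, chr2L:12974149-12974249, plus strand.
Vha55 intron summit: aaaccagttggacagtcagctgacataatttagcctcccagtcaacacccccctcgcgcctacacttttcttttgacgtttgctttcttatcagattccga
Vha55 start-site summit: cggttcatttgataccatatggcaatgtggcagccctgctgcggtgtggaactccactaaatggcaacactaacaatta
Vha55 CRE and E box: atgtgacggCACGTGACGTCAcagcagatt
Vha68-2 summit: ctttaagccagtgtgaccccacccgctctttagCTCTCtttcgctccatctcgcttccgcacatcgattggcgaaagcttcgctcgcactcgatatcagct

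The CRE and E box stretch lies inside the second Vha55 peak interval, and the centre of the CRE is 92 bp from that summit. Vha68-2 encodes the widely used A subunit, which hydrolyses ATP, and lies at chromosome 2L, 12974322 to 12978607, on the plus strand. Its summit lay 123 bp upstream of its first start site (peak at 2L, 12974121 to 12974280). The relative signals were 1.44, 0.567 and 0.455 in replicates 1, 2 and 3, with a mean of 0.819 ± 0.537, the lowest of the bound Vha genes. Replicate 1 was above a median peak and the other replicates were well below it. With any of the 3 replicates left out Vha68-2 was no longer counted as bound. Those lists were smaller, at 6953, 7405 and 7180 peaks without replicates 1, 2 and 3, against 9264. In their own lists, replicates 1 and 2 both had a Vha68-2 summit in the window. Its paralogues Vha68-1 and Vha68-3 encode the same subunit and had no entry of any rank within 1 kb of a start in any replicate, although Vha68-3 begins 179 bp past the end of Vha68-2.

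The a subunit, which forms the proton path of V0 together with the ring, held the highest bound gene. It also held the only bound gene outside the single-gene and widely used set. Vha100-2 lies at chromosome 3R, 18390323 to 18399169, on the minus strand. Its highest peak (3R, 18396919 to 18397689) measured 4.12, 3.20 and 3.61, with a mean of 3.64 ± 0.464, and ranked 306 of 3830 bound genes. The summit was 323 bp upstream of the inner start site of Vha100-2, inside an intron of its longer transcripts. It also lay in the 5′ UTR of Vti1b, a SNARE gene on the other strand that overlaps Vha100-2, and the Vti1b start was the nearer at 256 bp, so the peak cannot be assigned to Vha100-2 alone. Another summit of the same interval averaged 0.840 ± 0.414. At 578 bp inside the outer start site a summit measured 1.04, 0.382 and 1.43, with a mean of 0.953 ± 0.531. At 31 bp inside that start, the summit nearest to it measured 0.907, 1.82 and 0.382, with a mean of 1.04 ± 0.727, and the replicates disagreed on the order of these minor summits. Deeper in the gene, 1844 bp from a start and so outside the window, a further peak measured 2.53, 3.43 and 2.70, with a mean of 2.89 ± 0.475. In all, 6 optimal summits lay in Vha100-2.

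Vha100-5, at chromosome 2L, 11738948 to 11744524 on the plus strand, showed a summit 147 bp upstream of its start (peak at 2L, 11738664 to 11738958). It measured 1.20, 1.36 and 0.823, with a mean of 1.13 ± 0.277, close to a median optimal peak. A second summit 648 bp inside the gene averaged 0.852 ± 0.241. The higher peak of the locus was again an intronic one outside the window, 1884 bp from the start, at 2.07, 2.78 and 1.76, with a mean of 2.20 ± 0.527. No other gene had a start within 1 kb of the start-site summit, so this is 1 of the 4 bound Vha genes whose highest summit was not shared with a neighbour. The paralogues Vha100-1, Vha100-3 and Vha100-4 had no entry of any rank in the window in any replicate. Vha100-4 is the next Vha gene on the same strand beyond the 3′ end of Vha100-2, and the nearest optimal summit, itself inside Vha100-2, was 3671 bp from its start.

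VhaM9.7-b encodes the widely used e subunit, a small membrane protein of V0, at chromosome 3L, 21539862 to 21541215, plus strand. Its summit lay 447 bp upstream and measured 1.27, 1.53 and 1.64, with a mean of 1.48 ± 0.192. The summit was in the 5′ UTR of COX8, a cytochrome c oxidase subunit gene, 32 bp from the COX8 start. Sequences at summits of these 3 V0 genes follow, each on the strand of the Vha gene, and are shown because Vha100-2 and Vha100-5 are the bound paralogues of the a subunit and differ in relative signal. Capitals mark GAGAG or its complement CTCTC. They are the highest Vha100-2 summit, chr3R:18397237-18397266, its summit 578 bp inside the outer start, chr3R:18398541-18398641, both minus strand, the Vha100-5 start-site summit, chr2L:11738751-11738851, and the VhaM9.7-b summit, chr3L:21539401-21539430, both plus strand. The 30-base stretches are cut short because they lie in 5′ UTRs of the neighbours, so that the GAGAG found within 50 bp of the highest Vha100-2 summit lies outside the stretch shown.
Vha100-2 highest summit: cagtgataaaagctgaagattattattgct
Vha100-2 summit near the outer start: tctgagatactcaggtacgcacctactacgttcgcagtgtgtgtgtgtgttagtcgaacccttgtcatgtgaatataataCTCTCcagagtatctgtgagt
Vha100-5 start-site summit: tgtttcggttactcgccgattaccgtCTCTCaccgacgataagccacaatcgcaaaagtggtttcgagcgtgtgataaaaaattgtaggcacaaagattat
VhaM9.7-b summit: taaggttagaatgcttcttcttaacgattt

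**Figure D2:**
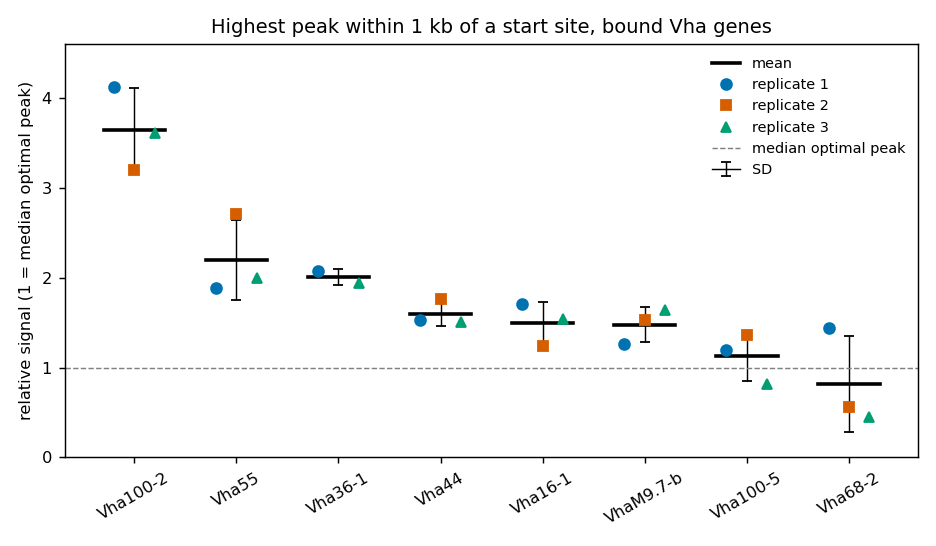
Relative signal (vertical axis, 1 = median optimal peak, dashed line) of each of the 8 bound Vha genes at its highest summit in the 1 kb window, ordered by mean. Points are the 3 replicates, bars the mean and whiskers the SD; Vha100-2 lies above the other genes in every replicate and Vha36-1 has no entry in replicate 2.

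Vha16-1, the widely used c subunit, forms most of the proteolipid ring and lies at chromosome 2R, 6625242 to 6633090, on the minus strand. Its start-site summit, 49 bp upstream of the inner start, measured 1.70, 1.24 and 1.54, with a mean of 1.50 ± 0.235. A further pair of summits in the window was weaker, at 0.741 ± 0.390 in the intron and 0.656 ± 0.423 just upstream of the outer start. The highest peak in any Vha gene stood in an intron of Vha16-1, 1583 bp from a start site and so outside the window. It measured 6.29, 6.48 and 5.06, with a mean of 5.95 ± 0.770, and ranked 121 of the 9264 optimal peaks. An intronic peak farther in, 4095 bp from a Vha16-1 start, measured 3.75, 4.24 and 3.58, with a mean of 3.86 ± 0.342. Both intronic peaks were higher than the start-site peak in each replicate. The 4 other c-type genes, Vha16-2, Vha16-3, Vha16-4 and Vha16-5, were not bound; the nearest optimal summits were 12806, 14378, 27669 and 13028 bp from their starts. The only entry in their windows was in replicate 2 near Vha16-2, at a relative signal of 0.213.

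The stator and stalk parts of V1 gave the 2 remaining bound genes, and both of their summits were shared. Vha44 encodes subunit C, which ties V1 to V0 and is released when the pump comes apart, and lies at chromosome 2R, 16324813 to 16336637, on the minus strand. Its summit lay 109 bp upstream and measured 1.53, 1.76 and 1.51, with a mean of 1.60 ± 0.140. It fell in the 5′ UTR of Hmgs, a gene of the mevalonate pathway on the other strand, 14 bp from the Hmgs start. Vha36-1 encodes the widely used D subunit of the central stalk, at chromosome 2R, 15541435 to 15542498, plus strand. Its summit, 58 bp upstream, measured 2.07 in replicate 1 and 1.95 in replicate 3, with a mean of 2.01 ± 0.0913 (n = 2). Replicate 2 listed no entry in the window, so the value rests on the other replicates. With replicate 1 or replicate 3 left out, Vha36-1 was no longer counted as bound. The start of CG8187 was the nearer at 14 bp. When each peak was counted only for its nearest start site, Vha44, Vha36-1 and VhaM9.7-b were no longer counted. This left 5 of the 33 Vha genes bound, or 15.2%, against 22.1% of all genes. In the single-gene and widely used set 4 of 14 remained, or 28.6% (exact interval 8.39 to 58.1%). Of the other 19 paralogues 1 remained, or 5.26%. Vha100-2 stayed among the 5 but lost its highest summit to Vti1b. Its highest value then fell to 1.04, below Vha55 at 2.20.

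**Figure D3:**
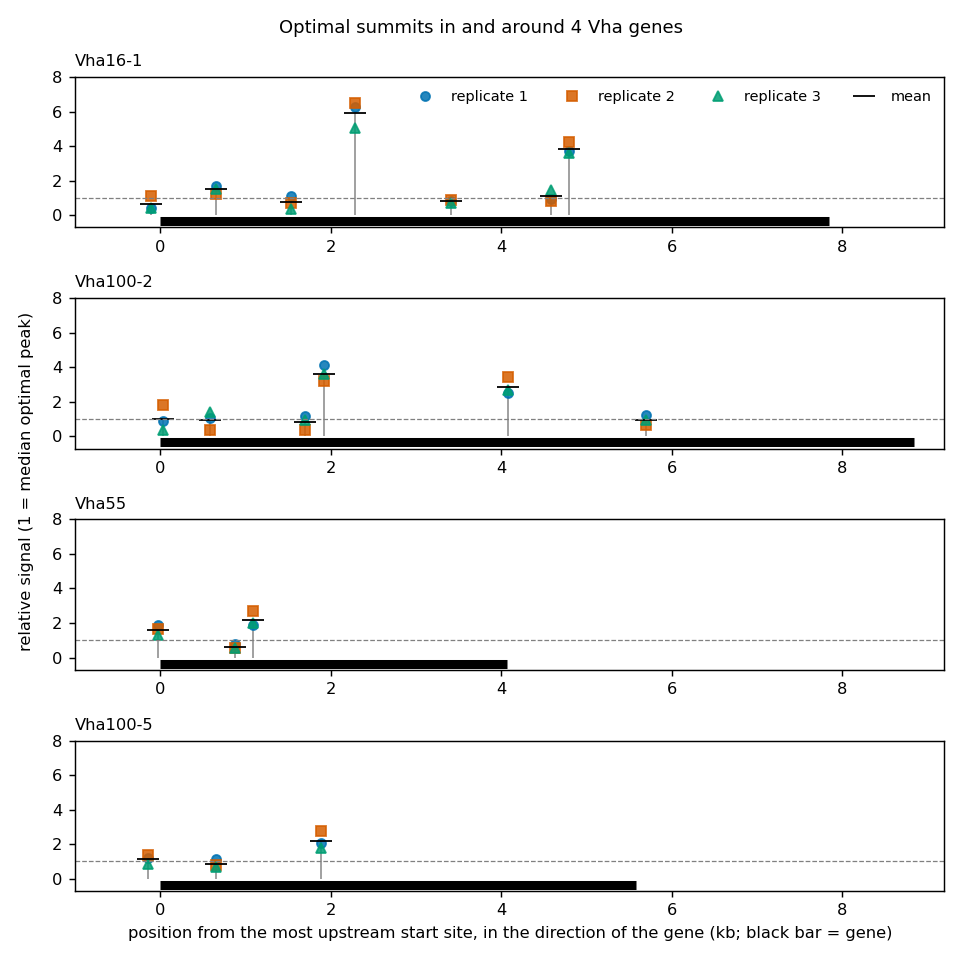
Mean relative signal and replicate values of every optimal summit from 1 kb upstream to the end of Vha16-1, Vha100-2, Vha55 and Vha100-5, against distance from the most upstream start site in the direction of the gene, in kb. The black bar is the gene and the dashed line a median optimal peak; in Vha16-1 and Vha100-5 the highest peak lies inside the gene and more than 1 kb from any start site.

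Over the 8 bound genes the median relative signal was 1.55, with medians of 1.62, 1.53 and 1.59 in the replicates (SD 0.0466), against 1.24 for all 3830 bound genes, whose quartiles were 0.836 and 2.03. The Vha genes ranged between 0.819 and 3.64. Of the 8, 7 were above a median optimal peak and 6 were above the median bound gene. In order of their means, Vha55 overlapped Vha36-1 in replicate range, and Vha44, Vha16-1, VhaM9.7-b, Vha100-5 and Vha68-2 each overlapped the next. Between Vha36-1 and Vha44 the ranges did not overlap, but Vha36-1 has 2 values. The step between Vha100-2 and Vha55 was larger than the spread, since the lowest Vha100-2 replicate, 3.20, exceeded the highest of Vha55, 2.70. The highest summit lay upstream of the nearest start site of the gene in 7 of the 8 genes, at distances of 49 to 447 bp, and the exception was Vha55. In Vha100-2 and Vha16-1 that start site was an inner one, so the summit still lay inside the gene, in an intron. In 4 of the 8, Vha100-2, Vha44, Vha36-1 and VhaM9.7-b, the highest summit was shared with a start site of a neighbour.

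Of the 25 Vha genes that were not bound, 17 had no entry of any rank within 1 kb in any replicate, although each replicate lists 30000 entries. This is 68% of them, close to the 63.8% of all 10115 genes not bound. Their nearest optimal summits lay 2145 to 27669 bp from a start, with a median of 8282 bp, against 9996 bp for all genes not bound. Among the single-gene subunits, Vha26 (subunit E of the peripheral stalk) and VhaSFD (the regulatory subunit H) had no entry in the window in any list. Vha13, the G subunit of the same stalk, had a summit 24 bp inside its start in replicate 1, at 1.28, and 62 bp inside in replicate 3, at 1.02. Replicate 2 and the pooled list had none there, so Vha13 is listed by 2 of 3 replicates and is not in the optimal list. VhaM9.7-c, another e subunit gene, had a summit near its start in all 3 replicates, at 0.364, 0.586 and 0.454, all below a median peak, yet none in the pooled list. Of the 5050 genes with an entry in every replicate, 109 had none in the pooled list. The rest had entries in at most 2 replicates and of at most 0.311: Vha14-2, VhaAC39-1, VhaAC39-2, Vha16-2, VhaAC45 and Vha36-2. Among the widely used paralogues, Vha14-1 (subunit F of the central stalk) and VhaPPA1-1 (the c″ proteolipid) had no entry in the window, and VhaAC39-1 (subunit d, which couples ring and stalk) had a pair of weak entries in replicate 2, at 0.197 and 0.200.

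The distances from a start site to the nearest optimal summit were as follows. In V1 they were 20542 bp for Vha68-1 and 4587 bp for Vha68-3 of the A subunit, and 2145 bp for Vha36-2 and 8307 bp for Vha36-3 of the D subunit. They were 4135 bp for Vha14-1 and 9678 bp for Vha14-2 of the F subunit. The peripheral stalk genes Vha26 and Vha13 were 8963 and 2508 bp away, and VhaSFD was 6491 bp away. In V0, Vha100-1 and Vha100-3 were 6871 and 4688 bp away, and VhaPPA1-1 and VhaPPA1-2 were 13758 and 9974 bp away. VhaAC39-1 and VhaAC39-2 were 8282 and 8863 bp away. The e subunit genes VhaM9.7-a, VhaM9.7-c and VhaM9.7-d were 7338, 7609 and 7186 bp away, and the accessory genes VhaAC45 and VhaAC45RP 15526 and 4472 bp away. Of the widely used genes with a restricted paralogue, VhaPPA1-1 alone was farther from a summit than that paralogue. Vha14-1 and VhaAC39-1, not bound themselves, were nearer than Vha14-2 and VhaAC39-2. The bound genes Vha68-2, Vha36-1 and Vha100-2 had summits at 123, 58 and 31 bp. They were nearer than Vha68-3, Vha36-2, and Vha100-1 and Vha100-3, which were not bound. No test was made of this order.

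**Figure D4:**
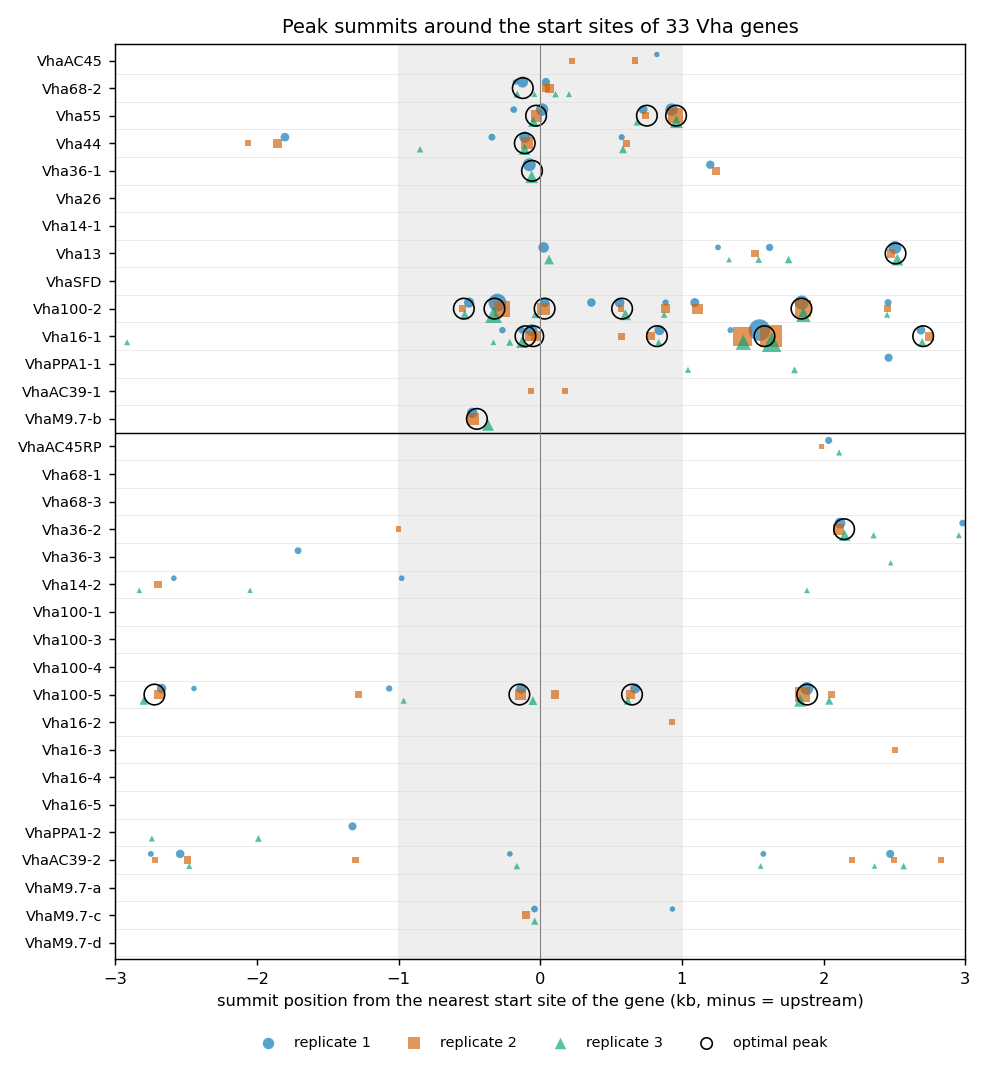
Peak summits within 3 kb of the nearest start site of each of the 33 Vha genes, in kb with upstream negative. Coloured points are entries of the 3 replicates with area growing with relative signal, open circles are optimal peaks, the grey band is the 1 kb window, and the line divides the 14 single-gene and widely used genes (above) from the 19 other paralogues; 11 of the 14 genes above the line and 10 of the 19 below it have a replicate entry in the range shown, and in the grey band Vha100-5 alone of the 19 has an optimal peak.

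Some Vha genes stood next to optimal peaks that lay nearer to the start of another gene. An optimal peak of 4.49, 7.09 and 3.50, with a mean of 5.03 ± 1.85, lay 1548 bp past the 3′ end of VhaSFD, in an intron of Cyt-c-p, a cytochrome c gene, and 676 bp from the Cyt-c-p start. A peak of 2.14, 0.764 and 1.71, with a mean of 1.54 ± 0.702, lay 1140 bp past the end of Vha13, in an intron of subdued and 650 bp from its start. A peak of 1.39, 1.40 and 1.56, with a mean of 1.45 ± 0.0968, lay 775 bp past the end of Vha36-2, 29 bp from the start of the calmodulin gene Cam. All 3 were outside the window of the Vha gene.

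The bound Vha genes were also longer and had more start sites, and each start site adds a window to the rule. Their median length was 4931.5 bp and 5 of 8 had several start sites, against 1470 bp and 3 of 25 for the Vha genes not bound. Over all protein-coding genes the median was 2166 bp, and 26.5% had several start sites. The single-gene and widely used set differed in the same direction from the other paralogues, at a median of 2907 against 1371 bp, with several start sites in 5 of 14 against 3 of 19 genes, and with no intron in 2 against 7. The part of length and of the number of start sites in the counts was not tested. Widening the window to 2 kb or narrowing it to 500 bp left the same 8 genes bound. At 500 bp, however, the Vha55 summit at 959 bp falls outside the window. The start-site summit of Vha55, at 1.61, is then its highest and stands below Vha36-1 at 2.01.

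Sequence motifs were searched within 50 bp of the 16 optimal summits in the windows of Vha genes, on both strands. None held the VP box (TTACGTAA or TTATGTAA), the site known for Vrille and its antagonist Pdp1, against 2.07% of all 4552 optimal promoter summits. None held a C/EBP site (1.54% of promoter summits), an E box (1.32%), the CRE (0.527%) or the DREF site TATCGATA (1.52%). GAGAG, the core of GAGA factor sites, was found at 9 of the 16, or 56.3%, against 18.7% of promoter summits. The 9 include all 4 Vha100-2 summits, and the others belong to Vha16-1 with 2 and to Vha100-5, Vha44 and Vha68-2 with 1 each, so they are not independent. With 1 summit per gene, the highest, GAGAG was found in 5 of 8 Vha genes, against 16.5% of the 3830 bound genes. The contrast narrowed with a wider search: within 100 bp GAGAG was found at 10 of 16 Vha summits, or 62.5%, against 34.5% of promoter summits, and within 25 bp at 6 of 16, or 37.5%, against 10.2%. The absence of a match says only that these letters were not within the window.

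In the 250 bases before to 50 after each start site, GAGAG was no more frequent over the family than elsewhere, at 11 of 33 genes or 33.3% against 36.4% of all genes. It was found in 6 of the 8 bound Vha genes, against 49.7% of all bound genes, and in 5 of the 25 other Vha genes. A gene with several start sites was searched over more bases, and these were 5 of the 8 and 3 of the 25. The E box was found at 5 of 33 Vha genes, or 15.2%, against 5.34% of all genes: Vha44, Vha55, Vha68-2, VhaAC45RP and VhaM9.7-d. Vha44 and Vha68-2 held the longer TCACGTGA, the core of sites for Mitf, the fly relative of the human lysosomal regulator TFEB, which 28 of all 13945 genes held (0.201%). In Vha44 it lay 64 bp from the summit, and in Vha68-2 it lay near an inner start site, 1108 bp from the summit. The CRE was found at Vha55 alone among the 33, against 0.724% of all genes. Vha55 and VhaSFD held the DREF site, against 10.2% of all genes. The VP box was found at Vha68-3 and VhaPPA1-2, both not bound, against 3.32% of all genes.

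The mitochondrial ATP synthase is the related rotary enzyme, which in mitochondria runs in the direction of ATP synthesis. Of the Vha genes 8 of 33 were bound, against 10 of the 15 genes whose symbol starts with ATPsyn, or 66.7% (exact interval 38.4 to 88.2%). The ATPsyn count was 10 in each replicate's own list too. In both families the genes not bound included many secondary copies: none of the 4 ATPsyn genes with a symbol ending in L was bound, against 10 of the other 11, the exception being ATPsynB. The median relative signal was 1.55 for the bound Vha genes and 2.97 for the bound ATPsyn genes. The highest ATPsyn genes were ATPsynC at 7.82 ± 2.26, ATPsynbeta at 4.96 ± 0.704 and ATPsyngamma at 4.80 ± 0.198 (SD, n = 3). Vha100-2, at 3.64, was below these 3 and above the other 7. That summit was nearer to the Vti1b start, and the highest summit nearest to a Vha100-2 start averaged 1.04. Summits were shared among the ATPsyn genes too, as with CG11076 at ATPsynbeta and yata at ATPsyngamma. The values are set side by side with no test.

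The pump works with other proteins of the lysosome, and 3 lists of such genes are set beside it. In a list of 15 annotated genes of lysosomal enzymes and membrane proteins, 11 were bound, or 73.3% (exact interval 44.9 to 92.2%), at a median relative signal of 1.09. The highest were CtsL1, a cathepsin L gene, at 1.64 ± 0.391, and Cln3, a lysosomal membrane protein gene, at 1.60 ± 0.182. Next was Sap-r, the saposin precursor gene, at 1.45 ± 0.471. All 3 were below Vha55 and the shared Vha100-2 summit, and CtsL1 shared its own summit with Rpn13. Of 6 genes of pump assembly and control, 3 were bound. They were Rbcn-3A at 0.996 ± 0.178 and Rbcn-3B at 0.704 ± 0.196, which encode the RAVE-like complex that joins V1 to V0, and CAH1, a carbonic anhydrase gene, at 0.783 ± 0.126. ATP6AP2, an accessory protein of the pump, and Mitf were not bound, with the nearest summits 13498 and 85537 bp from a start. Of 8 genes of the TORC1 pathway, which senses amino acids at the lysosome together with the pump, 2 were bound. Lamtor3, a subunit of the Ragulator complex, measured 3.29, 1.74 and 5.01 with a mean of 3.34 ± 1.64 and shared its summit with fws, and Rheb, the GTPase that activates TORC1, averaged 0.823 ± 0.215. The share bound was 24.2% for the Vha genes, against 55.2% over the 3 lists, or 16 of 29 genes, and 27.5% for all genes. The lists were chosen with results of these data known, so the shares describe these genes only.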

How the data were processed

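Peak lists of 3 ChIP-seq replicates of vri-GFP white prepupae were used on the dm6 build: 1 per replicate and 1 pooled list of 30000 entries each, made as input for reproducibility analysis, and the optimal list. In the deposited lists the signal column holds the peak caller's enrichment signal per peak as the authors made it. For the aligner, the peak caller and the cutoff of the optimal list: not given in the sources used here. Read counts are not used here, so depth is unknown, and the number of replicates limits the precision. Signal was not scaled between libraries, so each list's values were divided by its median over optimal peaks. Entries were matched by an overlap of at least 1 bp and, among these, by the nearest summit, a choice made after the data were seen. Start sites came from Ensembl release 115 and genome sequence from RefSeq's copy of the same assembly. Median signal values before scaling were 81.4, 46.8 and 78.5 in replicates 1, 2 and 3, and 99.8%, 98.5% and 99.3% of optimal peaks had an entry in them.

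Every Vha gene is accounted for. Bound genes are given with each replicate's value, genes not bound by the nearest summit, and pathway lists by the 3 highest genes. Members, classes and lists were chosen with earlier results of these data known. With 1 group no test was made. Exact Clopper-Pearson intervals cover counting only and treat genes as independent, which they are not. Shares for the 2 classes rest on background knowledge of where paralogues are used. In the pathway lists 3 symbols were not found in the annotation, and 29 genes remained. Alternatives were the window, the nearest start site only, stronger peaks, interval overlap, RefSeq starts, each replicate left out, pooled signal and the highest overlapping entry. Python 3.11.15, pandas 2.3.3, NumPy 2.4.6, SciPy 1.17.1, Biopython 1.88 and matplotlib 3.10.9 were used, and the code was tested on simulated lists with known answers.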

Additional observations from a re-analysis of the deposited data

How the results depend on the processing

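The count of 8 bound Vha genes was the same with windows of 500 bp and 2 kb, with interval overlap and with RefSeq start sites. The last is a weak check: RefSeq and Ensembl start sites numbered 19608 and 19607, and both gave 27.47% of all genes. It was 7 with the stronger peaks only, without Vha68-2. With a replicate left out it was 6 to 7, in smaller lists of 6953 to 7405 peaks. Vha68-2 was lost whichever replicate was left out, and Vha36-1 was lost without replicate 1 or without replicate 3. Counting each peak for its nearest start site gave 5 Vha genes (15.2%) and 4 in the single-gene and widely used set (28.6%). For all genes the share was then 22.07%, and the alternative itself drops shared summits. The count in that set was 5 to 6 with a replicate left out, and the other paralogues had 1 bound gene under each alternative. The share of all protein-coding genes was 23.01% at 500 bp, 33.22% at 2 kb, 22.07% for nearest starts, 18.21% for stronger peaks, 28.65% with interval overlap and 22.12 to 23.49% with a replicate left out. The median relative signal of bound Vha genes was 2.104 at 2 kb, where the Vha16-1 and Vha100-5 intronic peaks enter, 1.129 for nearest starts, 1.599 for stronger peaks, 1.617 in the pooled list, 1.428 with the highest overlapping entry (chosen after the data were seen) and 1.558 to 1.623 with a replicate left out; beyond the change of genes or peaks counted, the cause was not tested. Of the other results, 44 of 49 values for single genes and motifs moved by less than the replicate spread or count limit. Settings in which Vha68-2 or Vha36-1 was no longer bound gave no value and are not among the 49. Vha36-1 has no value in replicate 2, so leaving that replicate out could not move it. Within 100 bp of the summits 2 E boxes, 1 TCACGTGA and 1 CRE appeared. No paired analysis was possible because there is 1 group. Depth is unknown, so the lack of an entry means that none was listed, not that binding was absent.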
